A study of Homo sapiens with 6 samples.

Results

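Divergent promoter long noncoding RNAs are transcripts that start at the promoter of a protein-coding gene and run away from it on the other strand. GENCODE names such a gene after its neighbour with the ending -DT (divergent transcript), so that CNN3-DT is the divergent transcript of CNN3. Here the 60624 genes of the deposited expression table were named with GENCODE release 44, and the members were the long noncoding RNAs (lncRNAs) whose symbol ends in -DT and whose mean over all 6 libraries was at least 1 TPM (a length-corrected abundance of transcripts, scaled to the same total in every library). The members were thus chosen by their level, pooled over both groups, and not by any difference between them. This rule kept 139 of 588 DT lncRNA genes. They are 139 of the 14778 genes that passed the same filter, 1339 of which were lncRNAs, and carry 138 symbols because TNFRSF10A-DT names 2 genes.

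The RNA came from A549, an established human cell line derived from a lung adenocarcinoma. Cells transfected with siCEP20, a small interfering RNA (siRNA) against the centrosomal protein gene CEP20, were compared with cells transfected with a control siRNA, siCTR, with 3 libraries per group harvested after 3 days. The study's methods describe siRNA carried by a lipid reagent into cells kept in DMEM, and libraries of poly(A) RNA that keep the strand. The sample labels instead name F-12K medium and, in 1 field, plasmid transfection for every sample, and which of the study's siRNAs was sequenced is not given in the sources used here. The study's methods speak of 3 independent experiments for its results in general, but the labels do not say whether the 3 libraries of a group came from separate cultures, and if they did not, p-values measure only the spread between these samples. CEP20 was at 29.2, 30.5 and 35.1 TPM in siCTR and at 16.2, 15.3 and 17.3 TPM in siCEP20, which is 51.4% of the siCTR mean (adjusted p = 0.000205).

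TPM keeps no read counts, and library depth is therefore unknown. Between 14429 and 14987 genes per library reached 1 TPM. The epithelial keratin KRT8 was at 1535 to 1673 TPM in siCTR and 2210 to 2421 TPM in siCEP20. KRT18 was at 1543 to 1626 TPM in siCTR and 1829 to 1896 TPM in siCEP20. EPCAM (0.834 to 3.85 TPM), CDH1 (11.1 to 24.1 TPM) and ALDH1A1 were also higher in siCEP20, whereas AKR1B10 and AKR1C1 were lower. The lung lineage markers NKX2-1 and SFTPB were at or below 0.045 TPM. These 9 markers summed to 6360 to 6524 TPM in siCTR and to 7549 to 7890 TPM in siCEP20. The 9 markers of fibroblasts, immune cells and endothelium summed to 20.5 to 28.9 TPM in siCTR and to 46.7 to 62.8 TPM in siCEP20. Nearly all of that sum was COL1A1 and CD68, while COL1A2, DCN and CD3E were at 0 in every library. The part of the rises of both sums in the results on lncRNAs was not tested.

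Most mammalian promoters fire in both directions. RNA polymerase II that leaves in the antisense direction is usually stopped early by the Integrator complex or at a poly(A) signal that U1 snRNP does not mask, and the short RNA is handed by the NEXT and PAXT adaptors to the nuclear exosome, which degrades it. A minority of divergent RNAs escapes this fate, is spliced and polyadenylated, and becomes abundant enough to be annotated as a lncRNA of its own.

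The annotation bore out the label for nearly all members. Of the 139 lncRNAs, 138 lay on the strand opposite to the gene they are named after, and every one of the 138 partners is protein-coding. The exception was the second gene named TNFRSF10A-DT, which lies on the partner's strand. The nearest annotated transcript starts of lncRNA and partner lay within 1000 bases in 134 cases and within 300 bases in 119, with a median distance of 100 bases. The gene bodies overlapped at their starts in 45 pairs. Exons shared bases with an exon of the partner in 40 members and with an exon of any gene in 70. Although the libraries keep the strand, the strand setting of the quantification is not given in the sources used here, so reads of overlapping genes on opposite strands cannot be told apart with certainty.

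The DNA between the 2 starts is the promoter that lncRNA and partner share. It is shown here for 6 members that were called changed, have a short gap free of other exons and shared no exon base with a partner, and for C2orf74-DT, an abundant member that was not called. Each stretch is hg38 sequence, read 5′ to 3′ on the partner's strand from the first base beyond the lncRNA's start to the last base before the partner's start. Capitals mark matches, on either strand, to the GC box GGGCGG, the CCAAT box CCAAT, the TATA box TATAAA, an ETS motif ACTTCCGG, or the NRF1 motif, which is a GCGC followed by A, any base and another GCGC. No letters of one motif contain another.
CNN3-DT to CNN3, chr1:94927224-94927360: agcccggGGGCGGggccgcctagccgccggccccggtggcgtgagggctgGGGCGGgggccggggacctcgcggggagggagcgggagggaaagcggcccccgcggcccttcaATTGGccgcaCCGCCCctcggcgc
SUCLG2-DT to SUCLG2, chr3:67654613-67654668: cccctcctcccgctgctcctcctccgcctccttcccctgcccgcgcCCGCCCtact
AJUBA-DT to AJUBA, chr14:22982552-22982697: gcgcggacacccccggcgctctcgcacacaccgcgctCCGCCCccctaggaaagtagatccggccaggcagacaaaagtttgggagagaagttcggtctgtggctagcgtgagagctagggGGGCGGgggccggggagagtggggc
NUP50-DT to NUP50, chr22:45163812-45163924: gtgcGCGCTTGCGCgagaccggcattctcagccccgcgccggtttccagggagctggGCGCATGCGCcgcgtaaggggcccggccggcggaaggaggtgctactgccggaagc
RAB30-DT to RAB30, chr11:83071924-83072051: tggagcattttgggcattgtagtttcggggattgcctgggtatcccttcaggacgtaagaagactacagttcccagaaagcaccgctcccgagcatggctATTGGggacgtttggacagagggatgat
MAGEA3-DT to MAGEA3, chrX:152698701-152698766: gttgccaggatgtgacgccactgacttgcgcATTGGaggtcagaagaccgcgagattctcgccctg
C2orf74-DT to C2orf74, chr2:61144970-61145067: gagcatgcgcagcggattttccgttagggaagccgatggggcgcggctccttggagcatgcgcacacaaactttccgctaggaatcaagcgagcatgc

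Among the divergent transcripts called higher, the stretches of CNN3-DT, SUCLG2-DT and AJUBA-DT held GC boxes, CNN3-DT's also held a CCAAT box, 83.2%, 76.8% and 68.5% of their bases were G or C, and NUP50-DT's held a pair of NRF1 matches. Those of RAB30-DT and MAGEA3-DT, both called lower, held a CCAAT box and no GC box, at 52.3% and 59.1% G or C. These few stretches were picked for display, not every called member is among them, and no difference in composition between the directions was tested. The stretch of C2orf74-DT held no match, which says only that these letters are absent from this window.

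Over windows of 300 bases, from 250 before to 50 after each gene's start, the members' promoters had a median G and C content of 70.0% and 32 CpG dinucleotides. The corresponding medians were 68.0% and 30 for the partners, 62.3% and 22 for the 14737 tested genes with a window, and 58.3% and 13 for the 1200 tested lncRNAs that are no members. A GC box was present in 72.7% of member windows against 59.0% of all windows, and an NRF1 match in 18% against 9.17%. A TATA box was found in 3.60% of member windows against 7.90%, a CCAAT box in 28.1% against 35.5%, and the ETS motif in 10.1% against 6.71%. Members and partners share much of this sequence and are not independent. Of the 15 members called higher, 6 held an NRF1 match, and of the 7 called lower, 0. A GC box was present in 12 and 3 of them, a CCAAT box in 3 and 4, the ETS motif in 2 and 0, and a TATA box in 0 and 0. These counts are small, and no difference between the directions was tested.

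Divergent transcripts were scarce RNAs. The median member stood at 2.89 TPM, against 15.5 TPM for all tested genes and 2.55 TPM for the other lncRNAs, and all 139 together summed to 677, 664 and 706 TPM in the siCTR libraries and 681, 717 and 718 TPM in the siCEP20 libraries. The groups overlapped in this sum, which never exceeded 0.0718% of all TPM. Just inside the limit of 1 TPM were RPAP3-DT with a mean of 1.03, PELP1-DT with 1.01 and LRRC8C-DT with 1.006 TPM. Just outside were GSK3B-DT with 0.999, MINDY2-DT with 0.994 and MAGOH-DT with 0.988 TPM. In 124 members the mean reached 1 TPM in both groups, in 11 only in siCEP20 and in 4 only in siCTR. A member of the last kinds could pass the filter through the group in which it is high.

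A divergent transcript was usually the minor product of its promoter. Its level lay below that of the partner in 129 of 138 pairs, at under 10% of it in 68, and at a median of 10.5% of it (quartiles 3.80% and 25.7%) over the 6 libraries. The 301 other pairs of a lncRNA and a coding gene with starts on opposite strands within 1000 bases had nearly the same median, 10.3%. In 9 pairs the lncRNA was the more abundant of the pair. The largest such ratio was that of IRX2-DT, which in siCTR stood at 909% of IRX2, a homeobox gene. It was followed in siCTR by RAB30-DT at 590% of RAB30, RNF32-DT at 358% of RNF32 and LHX1-DT at 287% of LHX1.

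**Figure D1:**
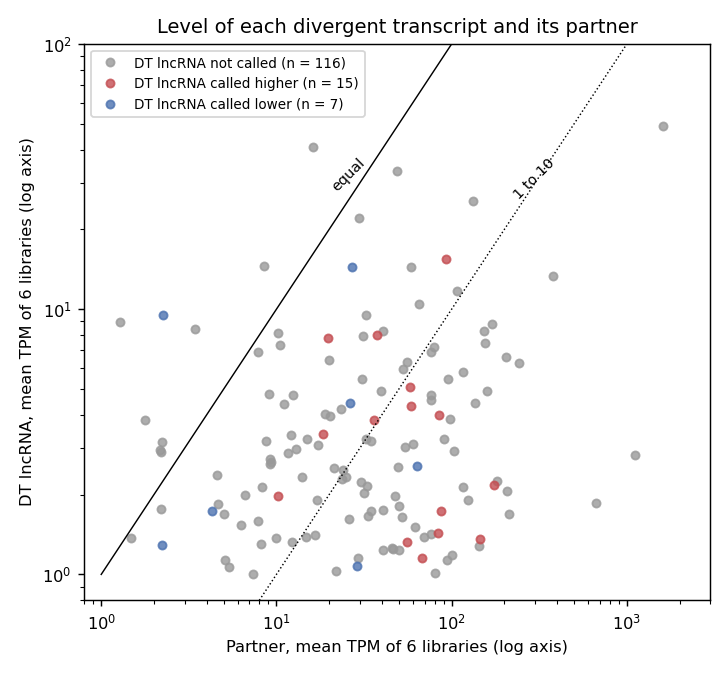
Mean TPM over the 6 libraries of each of 138 divergent transcripts (vertical, log axis) against that of its partner gene (horizontal, log axis), coloured by whether the lncRNA was called higher or lower in siCEP20. The solid line marks equal levels and the dotted line 1 to 10, and 129 of the 138 points lie below the solid line.

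The most abundant members showed small changes or changes within the spread of the libraries. ITGB1-DT, the divergent transcript of the integrin beta 1 gene, led with 55.5, 53.8 and 53.9 TPM in siCTR and 42.0, 42.2 and 47.9 TPM in siCEP20. Its groups did not overlap, and it fell by 0.30 on the log2(TPM + 1) scale (SE 0.0709, adjusted p = 0.0101), short of the fold needed for a call. RNASEH1-DT, which starts beside the gene of ribonuclease H1, was also lower, at 40.4, 35.7 and 35.9 TPM in siCTR and 31.8, 26.9 and 28.6 TPM in siCEP20 (log2 change -0.35, SE 0.0863, adjusted p = 0.0124). Both log2 changes stayed below 0 in every alternative tried, while ITGB1 rose by 0.52 (adjusted p = 0.00163) and RNASEH1 had a log2 change of 0.02 (adjusted p = 0.844). The difference between lncRNA and partner was called for ITGB1-DT at -0.82 (SE 0.116, adjusted p = 0.00233), and for RNASEH1-DT it was -0.37 (SE 0.107, adjusted p = 0.0364), under the fold limit. ITGB1-DT shares 401 exon bases, 9.44% of its own, with ITGB1, which averaged 1609 TPM.

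In 3 others of the most abundant members the groups overlapped. SLC12A2-DT, beside the gene of a sodium, potassium and chloride cotransporter, was at 42.6, 36.1 and 39.9 TPM in siCTR and 41.8, 42.3 and 42.4 TPM in siCEP20 (log2 change 0.09, adjusted p = 0.345). ZC3H12A-DT had 25.6, 21.2 and 27.7 TPM in siCTR and 25.8, 24.3 and 29.1 TPM in siCEP20 (log2 change 0.09, adjusted p = 0.551). C2orf74-DT had 23.6, 21.3 and 20.5 TPM in siCTR and 21.6, 23.4 and 21.7 TPM in siCEP20 (log2 change 0.03, adjusted p = 0.804). The signs of these 3 small values turned under another scaling. All 3 partners passed the test, and among them ZC3H12A, the gene of the RNA-cleaving enzyme Regnase-1, rose by 0.67 (adjusted p = 0.000319) and C2orf74 by 0.73 (adjusted p = 0.0023). The difference from the partner was called for ZC3H12A-DT at -0.58 (adjusted p = 0.00405) and for C2orf74-DT at -0.70 (adjusted p = 0.0154), and for SLC12A2-DT it was -0.27 (adjusted p = 0.203).

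Whether knockdown changed the members was asked with limma over all 14778 genes, a gene being called at an adjusted p under 0.05 with a fold change over 1.5 or under 0.67. On the log2(TPM + 1) scale, which understates changes of scarce RNAs, 15 members were called higher (10.8%) and 7 lower (5.04%). Of all genes tested, 11.2% were called higher and 4.61% lower, so the members' shares stood near the background. Their median log2 fold change was 0.11, against 0.13 for all genes. Of the members 87 were above 0 and 52 below, and of all genes 9387 and 5391. Without siCEP20 replicate 2 the members' median was 0.064, against 0.116 for all genes. Median-of-ratios scaling moved the median of all genes from 0.13 to 1e-04 and the members' split from 15 higher and 7 lower to 8 higher and 10 lower. Under quantile normalization the split was 7 higher and 11 lower. The background moved with it, to 6.05% higher and 7.46% lower under the median of ratios, and to 6.25% and 6.88% under quantile normalization.

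With the adjusted p limit alone and no fold limit, 24 members rose (17.3%) and 12 fell (8.63%), below the shares of 30.2% and 13.2% among all genes. The groups did not overlap in 53 members (38.1%), against 55.4% of all genes. Members are scarcer and noisier than the average gene, with a median SE of 0.170 against 0.107. Among genes between 1 and 5 TPM, 10.8% of 102 members were called higher and 4.90% lower, against 11.8% and 3.60% of all 3857 genes of that range, and the groups were separate in 34.3% against 38.4%. At 5 TPM or more 37 members remained, with 10.8% called higher and 5.41% lower, against 11% and 4.97% of all genes of that range. By the adjusted p alone 21.6% were higher against 34.7%, and 18.9% lower against 15.9%. The groups were separate in 48.6% against 61.4%. These members were still scarcer than the genes beside them, with a median of 8.28 against 26.6 TPM. The other 1200 lncRNAs had 9.17% called higher and 5.17% lower.

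**Figure D2:**
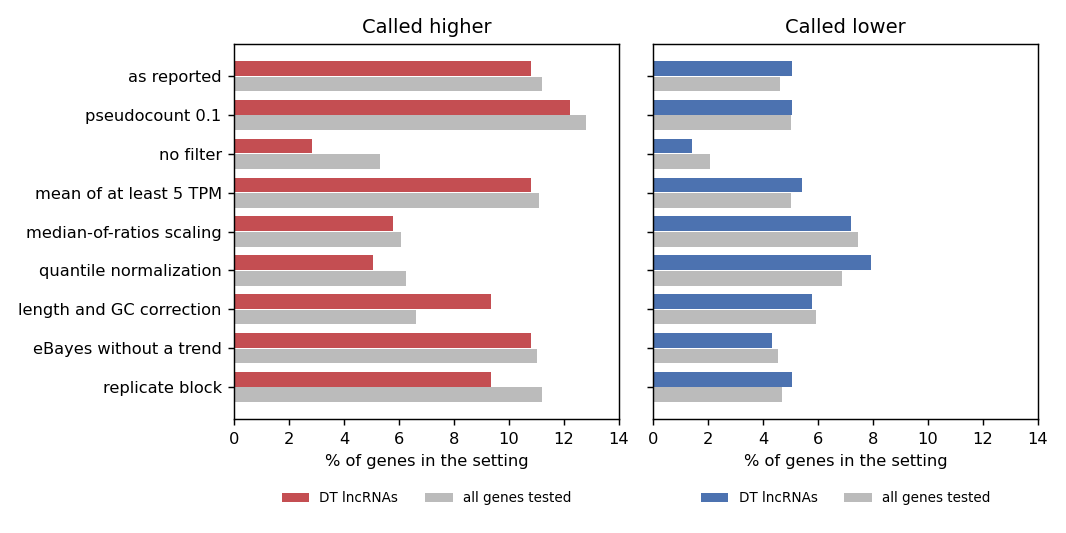
Percentage of divergent transcripts (coloured bars) and of all genes tested (grey bars) called higher (left) or lower (right) in siCEP20 under each way of processing the table. With the values as reported, 10.8% of members against 11.2% of genes were called higher, and both bars shorten on the left and lengthen on the right under the median of ratios and quantile normalization.

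In all 22 called members the 3 values of a group lay apart from the 3 of the other. The limits for a call favour such separation, so it is no added support, and 55.4% of all genes had separate groups. Of the 15 called higher, GOLPH3-DT, LY6E-DT, DDX19A-DT, PPP2CA-DT and PDCD6IP-DT averaged under 1 TPM in siCTR, and of the 7 called lower, KLHDC7B-DT and B4GAT1-DT averaged under 1 TPM in siCEP20. These 7 passed the filter through the group in which they were high.

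CNN3-DT and AJUBA-DT were called higher in every alternative that tested them. CNN3-DT is named after the gene of calponin 3, an actin-binding protein, and had 2.56, 3.24 and 2.73 TPM in siCTR and 6.02, 5.85 and 5.52 TPM in siCEP20. This is 204% of the siCTR mean, with a log2 change of 0.83 (SE 0.121, adjusted p = 0.00113), and CNN3 had a log2 change of 0.34 (adjusted p = 0.0527). The difference between the changes of lncRNA and partner was 0.48 (SE 0.163, adjusted p = 0.0570) and was not called. AJUBA-DT starts beside the gene of a LIM protein of adherens junctions and was at 2.70, 2.70 and 2.57 TPM in siCTR and 5.28, 5.46 and 5.14 TPM in siCEP20. It rose to 199% (log2 change 0.78, SE 0.111, adjusted p = 0.000998), AJUBA had a log2 change of 0.07 (adjusted p = 0.482), and this difference was called at 0.71 (SE 0.127, adjusted p = 0.00588). AJUBA-DT shares exon bases with C14orf93 on the opposite strand.

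FMNL1-DT, beside the gene of a formin that elongates actin filaments, was the most abundant member called higher. It rose from 12.1, 10.5 and 12.3 TPM to 19.2, 20.2 and 18.2 TPM (log2 change 0.68, SE 0.0910, adjusted p = 0.000789). FMNL1 rose with it, from 64.9 ± 2.98 to 121 ± 6.04 TPM (SD, n = 3). The pair shares 648 exon bases, 14.2% of those of FMNL1-DT, and the call of FMNL1-DT was lost under the median of ratios and quantile normalization.

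SUCLG2-DT was among the calls kept in every alternative tried, and TARS1-DT among those that were not. SUCLG2-DT lies next to the gene of a subunit of succinyl-CoA ligase, an enzyme of the citric acid cycle, and went from 2.54, 3.94 and 4.03 TPM to 7.34, 6.46 and 6.36 TPM (log2 change 0.79, SE 0.158, adjusted p = 0.00478). SUCLG2 was called higher too, from 46.1 ± 1.35 to 69.7 ± 1.41 TPM (SD, n = 3), so both arms of this promoter rose. TARS1-DT, next to the gene of threonyl-tRNA synthetase, had 1.26, 0.677 and 2.01 TPM in siCTR and 3.65, 2.22 and 3.27 TPM in siCEP20. Its log2 change of 0.83 (SE 0.245, adjusted p = 0.0258) rested on several single libraries: the adjusted p was 0.0859 without siCEP20 replicate 1, 0.0704 without siCEP20 replicate 3, 0.0657 without siCTR replicate 1 and 0.0694 without siCTR replicate 2.

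NUP50-DT, TCF12-DT and DDX19A-DT are named after genes whose products act in the nucleus or on RNA. NUP50-DT, the divergent transcript of a nucleoporin gene, had 6.87, 5.28 and 4.99 TPM in siCTR and 9.54, 9.85 and 10.2 TPM in siCEP20 (log2 change 0.70, SE 0.123, adjusted p = 0.00261). Its change stayed positive but under the fold limit, at 0.57 under the median of ratios and 0.53 under quantile normalization. TCF12-DT, beside the gene of a helix-loop-helix transcription factor, had 3.84, 3.42 and 7.76 TPM in siCTR and 10.1, 12.3 and 10.4 TPM in siCEP20, where siCTR replicate 3 stood above the other control libraries (log2 change 1.05, SE 0.241, adjusted p = 0.00892). TCF12 rose by 0.43 (adjusted p = 0.00154). DDX19A-DT, beside an RNA helicase gene, had 0.485, 0.552 and 0.886 TPM in siCTR and 2.21, 2.47 and 1.32 TPM in siCEP20 (log2 change 0.86, SE 0.214, adjusted p = 0.0130), and it shares exon bases with the related helicase gene DDX19B on the opposite strand.

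PPP2CA-DT, beside the gene of a catalytic subunit of protein phosphatase 2A, had 0.975, 0.803 and 0.713 TPM in siCTR and 1.51, 2.29 and 2.30 TPM in siCEP20 (log2 change 0.72, SE 0.184, adjusted p = 0.0143). Without siCEP20 replicate 2 its adjusted p was 0.0516. LY6E-DT, beside the gene of a lipid-anchored surface protein, was listed at 1.04, 0 and 0.941 TPM in siCTR and at 1.97, 2.49 and 1.68 TPM in siCEP20 (adjusted p = 0.0311). Its call was lost without siCEP20 replicate 1 (adjusted p = 0.0714) or 2 (adjusted p = 0.0971), under the median of ratios and quantile normalization, with a pseudocount of 0.1 and with no filter. The remaining members called higher were AKAP1-DT, ARNT2-DT, PDCD6IP-DT and PCMTD1-DT, with log2 changes from 0.62 to 0.68. Each lost its call without some single library: ARNT2-DT without siCEP20 replicate 2 (log2 change 0.58, under the fold limit), and PDCD6IP-DT without siCEP20 replicate 1 or siCTR replicate 1 (adjusted p = 0.0561 and 0.0534). AKAP1-DT lost it without siCEP20 replicate 2 or 3 or siCTR replicate 1 or 2 (adjusted p from 0.0607 to 0.0794), and PCMTD1-DT without any 1 library other than siCTR replicate 2 (adjusted p from 0.0512 to 0.137). All 4 calls were also lost under the median of ratios and quantile normalization.

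GOLPH3-DT, the divergent transcript of a Golgi phosphoprotein gene, was listed at 0 in all 3 siCTR libraries and at 3.18, 3.56 and 3.70 TPM in siCEP20 (adjusted p = 7.16e-05). No fold is given, because the siCTR mean is 0, and whether such an exact 0 is a failed estimate was not tested. All 13 mitochondrially encoded proteins' genes were also listed at 0, but in every library of both groups. GOLPH3-DT has a single annotated exon of 1314 bases, 360 of which (27.4%) also belong to GOLPH3 exons on the other strand. GOLPH3 was at 81.0 ± 7.82 TPM in siCTR and 93.1 ± 3.40 TPM in siCEP20 (SD, n = 3; adjusted p = 0.0690).

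**Figure D3:**
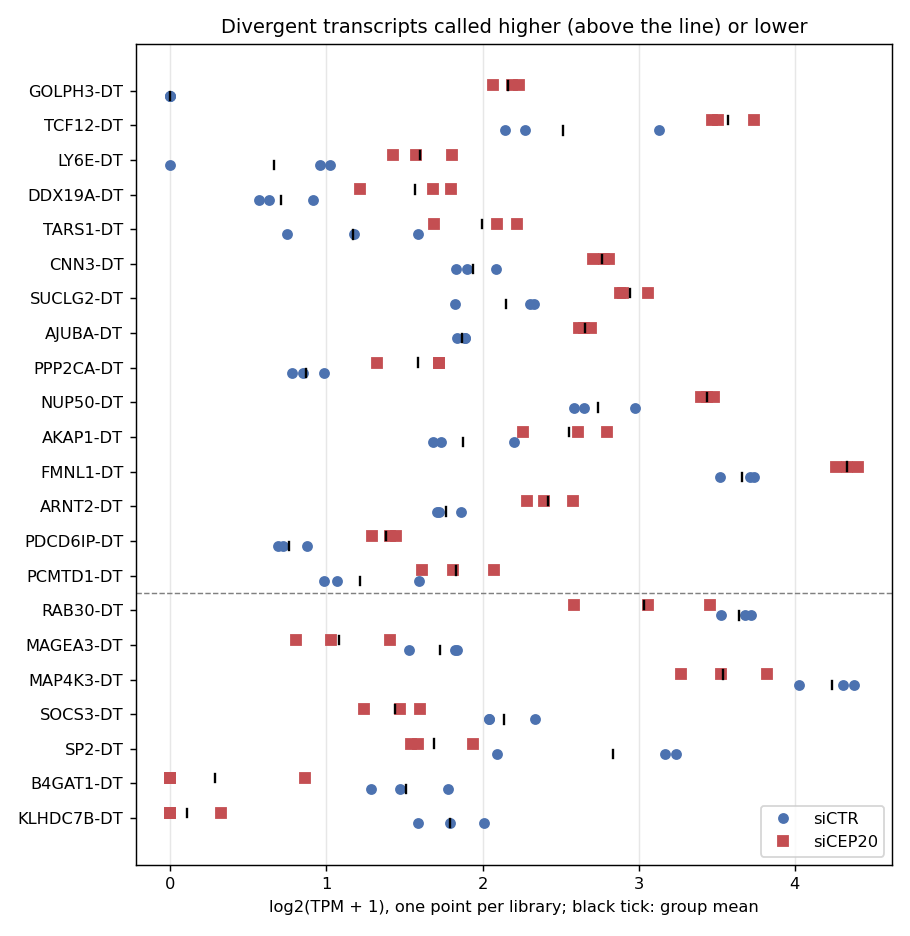
Level of each of the 22 called divergent transcripts as log2(TPM + 1), with 1 circle per siCTR library, 1 square per siCEP20 library and a black tick at each group's mean. The 15 members above the dashed line were called higher and the 7 below it lower, and in each of the 22 the circles and squares do not overlap. The limits for a call favour such separation.

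Of the 7 members called lower, 2 were listed at 0 in a pair of siCEP20 libraries, with the same limit on exact zeros as for GOLPH3-DT. KLHDC7B-DT had 3.03, 2.46 and 2.00 TPM in siCTR and was listed at 0, 0 and 0.250 TPM in siCEP20 (adjusted p = 0.000472). B4GAT1-DT, beside the gene of an enzyme that builds the sugar chain of dystroglycan, had 1.44, 1.77 and 2.43 TPM in siCTR and was listed at 0, 0.815 and 0 TPM in siCEP20 (adjusted p = 0.00924). B4GAT1 was called lower as well, from 34.8 ± 0.527 to 22.6 ± 2.69 TPM (SD, n = 3). B4GAT1-DT also shares exon bases with SLC29A2, a nucleoside transporter gene on the opposite strand.

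SP2-DT and SOCS3-DT, both beside genes of regulators, were called lower as well. SP2-DT, beside the gene of a transcription factor of the Sp family, had 3.27, 8.45 and 8.002 TPM in siCTR and 2.00, 2.83 and 1.91 TPM in siCEP20, where siCTR replicate 1 was closest to the knockdown values. Its log2 change was -1.15 (SE 0.295, adjusted p = 0.0147), and -1.52 without that library. SOCS3-DT, beside the gene of an inhibitor of cytokine signalling, had 4.05, 3.12 and 3.11 TPM in siCTR and 1.78, 1.36 and 2.02 TPM in siCEP20 (log2 change -0.70, SE 0.162, adjusted p = 0.00923). SOCS3 moved the same way and fell by 0.42 (adjusted p = 0.00207), under the fold limit.

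MAP4K3-DT, beside a kinase gene, was the most abundant member called lower, with 18.8, 15.3 and 19.8 TPM in siCTR and 8.64, 13.2 and 10.5 TPM in siCEP20 (log2 change -0.70, SE 0.154, adjusted p = 0.00744). Without siCEP20 replicate 1 the change was -0.56, under the fold limit. MAP4K3 fell by 0.34 (adjusted p = 0.0284), and 75 exon bases, 0.595% of those of MAP4K3-DT, belong to both genes.

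The calls of RAB30-DT and MAGEA3-DT rested on several single libraries. RAB30-DT, beside the gene of a small GTPase of the Golgi, had 12.1, 11.8 and 10.5 TPM in siCTR and 5.00, 10.0 and 7.33 TPM in siCEP20 (log2 change -0.61, SE 0.199, adjusted p = 0.0381). Without siCEP20 replicate 1 its change was -0.38 (adjusted p = 0.0809). Its adjusted p was 0.0769 without siCEP20 replicate 3, 0.107 without siCTR replicate 1, 0.0900 without siCTR replicate 2 and 0.0585 without siCTR replicate 3.

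MAGEA3-DT lies on the X chromosome beside MAGEA3, a cancer-testis antigen gene, and had 2.54, 1.89 and 2.56 TPM in siCTR and 1.65, 0.744 and 1.04 TPM in siCEP20 (log2 change -0.65, SE 0.202, adjusted p = 0.0316). The adjusted p was 0.0932 without siCEP20 replicate 2, 0.0727 without siCEP20 replicate 3, 0.0947 without siCTR replicate 1 and 0.0858 without siCTR replicate 3. MAGEA3 went the other way, rising by 0.57 (adjusted p = 0.0129).

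Another 9 members with higher and 5 with lower levels passed the limit of 0.05 on the adjusted p but not the fold limit. That limit was applied on the log2(TPM + 1) scale, which understates changes of scarce RNAs. By mean TPM some of them changed by more than the limit, such as EIF2AK3-DT at 215% and MTA1-DT at 175% of siCTR. Those named here were chosen for mention after their values were seen. GARS1-DT, beside the gene of glycyl-tRNA synthetase, was among those higher, at 11.5, 10.4 and 11.7 TPM in siCTR and 13.9, 15.3 and 17.2 TPM in siCEP20 (log2 change 0.43, adjusted p = 0.00997). ATP6AP1-DT, beside the gene of an accessory subunit of the vacuolar proton pump, was among those lower, at 9.49, 9.73 and 10.5 TPM in siCTR and 6.85, 7.19 and 5.92 TPM in siCEP20 (log2 change -0.51, adjusted p = 0.00495).

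Each lncRNA was then compared with the coding gene that shares its promoter. Of the 137 tested partners, 17 were called higher (12.4%) and 6 lower (4.38%), against 11.2% and 4.61% of all genes. Their log2 fold changes had a median of 0.18. The lncRNA and its partner changed with the same sign in 77 of 138 pairs (55.8%), against 55.1% of all 1574 head-to-head pairs of tested genes and 59.1% of the 301 other pairs of a lncRNA and a coding gene. In 3 pairs both were called the same way: SUCLG2-DT and FMNL1-DT rose with their partners, and B4GAT1-DT fell with its partner. In 0 pairs were they called in opposite ways, in 19 the lncRNA alone was called, in 21 the partner alone, and in 95 neither. In the 301 other pairs of a lncRNA and a coding gene these counts were 0, 34, 39 and 222. The 3 pairs called the same way are 2.17% of member pairs, against 1.65% of all 1574 pairs, of which 0.445% were called in opposite ways. Leaving out siCTR replicate 2 made MAGEA3-DT a pair called in opposite ways, and leaving out siCTR replicate 3 did so for RELA-DT. By the adjusted p alone 14 pairs (10.1%) moved the same way and 4 (2.90%) in opposite ways, against 11.6% and 7.12% of all pairs, and in all 4 the lncRNA fell and the partner rose: ITGB1-DT, SP2-DT, RELA-DT and MAGEA3-DT. Across the 138 pairs, which share the same 6 libraries, the log2 changes had a Pearson r of 0.178 and a Spearman rho of 0.171, with 0.172 and 0.157 in the other lncRNA pairs. These pairs are not independent, and the values describe these libraries only.

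The difference between the 2 changes was tested in each pair, and adjusted over all 1574 head-to-head pairs. It is taken on the log2(TPM + 1) scale, which understates the change of the scarcer gene more. Where both rise by the same fold, the scarcer gene appears relatively lower, and where both fall, relatively higher. JARID2-DT, for example, went from 17.7% to 21.4% of its partner's level, yet its difference was -0.03. The difference was called in 29 of 138 pairs (21.0%), against 21.9% of all such pairs, and so near the background here too. The lncRNA was relatively higher in 12 of them and relatively lower in 17, and the median difference was -0.09. In the 301 other pairs of a lncRNA and a coding gene these counts were 25 and 32, with a median of -0.05. Over all 1574 pairs the gene listed first was relatively higher in 179 and relatively lower in 166, with a median of 0.0126. Without siCEP20 replicate 1, 19 pairs were called, 13.8% against 18.4% of all pairs. Pairs whose exons overlap were called in 10 of 40 cases (25%) and pairs without overlap in 19 of 98 (19.4%).

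**Figure D4:**
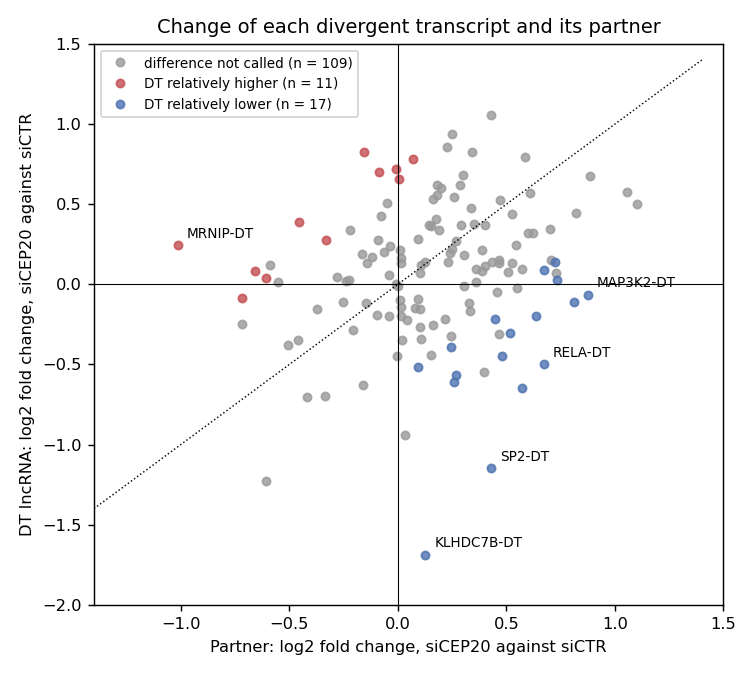
Log2 fold change (siCEP20 against siCTR, on log2(TPM + 1)) of each divergent transcript (vertical) against that of its partner (horizontal), for 137 pairs, without GOLPH3-DT, whose siCTR values were all listed at 0. The dotted line marks equal changes, coloured points are the pairs whose difference was called, and the points scatter on both sides of the line (Pearson r over all 138 pairs 0.178).

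Pairs with the lncRNA relatively higher were of 2 kinds. In MRNIP-DT, beside the gene of a protein that binds the MRE11, RAD50 and NBS1 complex of DNA repair, the coding gene fell while the change of the lncRNA did not pass the test. MRNIP went from 62.5, 63.7 and 64.8 TPM to 27.9, 33.2 and 32.3 TPM and was called lower (log2 change -1.01, adjusted p = 7.33e-05), and MRNIP-DT had 1.37, 1.83 and 1.98 TPM in siCTR and 2.05, 2.25 and 2.37 TPM in siCEP20 (log2 change 0.25, adjusted p = 0.235). The difference was 1.26 (SE 0.144, adjusted p = 0.000957), and the lncRNA went from 2.71% to 7.13% of its partner's level. Of the exon bases of MRNIP-DT, 13.3% also belong to MRNIP.

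SNRPF-DT, beside the gene of an Sm protein of spliceosomal snRNPs, showed the same form. SNRPF fell from 88.5 ± 3.70 to 64.3 ± 3.39 TPM (SD, n = 3; log2 change -0.46, adjusted p = 0.00101), and SNRPF-DT was at 2.97, 4.43 and 4.59 TPM in siCTR and 5.59, 5.94 and 4.92 TPM in siCEP20 (log2 change 0.39, adjusted p = 0.0780). Their difference was 0.84 (SE 0.155, adjusted p = 0.00663).

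In the second kind the lncRNA rose beside a partner whose change did not pass the test. For NUP50-DT, NUP50 was at 20.2 ± 1.73 TPM in siCTR and 19.0 ± 0.928 TPM in siCEP20 (SD, n = 3; adjusted p = 0.465), and the difference was 0.79 (SE 0.189, adjusted p = 0.0178). Its adjusted p was 0.0537 without siCEP20 replicate 3, 0.0550 without siCTR replicate 2 and 0.0512 without siCTR replicate 3. The difference of TARS1-DT and TARS1 was 0.99 (SE 0.301, adjusted p = 0.0422), with adjusted p values of 0.0877 and 0.0797 without siCEP20 replicate 1 or 3 and of 0.0840, 0.115 and 0.0527 without siCTR replicate 1, 2 or 3. In GOLPH3-DT the difference was called as well (adjusted p = 0.000303), with the limit given above for its siCTR values.

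The pairs with the lncRNA relatively lower by the largest amounts were those of KLHDC7B-DT, SP2-DT, MAGEA3-DT, RELA-DT and MAP3K2-DT. RELA-DT is the divergent transcript of RELA, the p65 subunit of NF-kappa B. RELA rose from 116, 111 and 127 TPM to 166, 178 and 228 TPM and was called higher, while RELA-DT went from 8.31, 10.7 and 7.73 TPM to 4.74, 6.57 and 6.72 TPM and was lower without reaching the fold limit (log2 change -0.50, adjusted p = 0.0334). The difference was -1.17 (SE 0.176, adjusted p = 0.00292), and the lncRNA went from 7.55% to 3.16% of its partner's level. RELA-DT shares 103 exon bases, 2.56% of its own, with RELA.

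MAP3K2-DT, beside a kinase gene of MAP kinase signalling, was at 5.24, 4.61 and 4.71 TPM in siCTR and 4.44, 5.57 and 3.90 TPM in siCEP20, with overlapping groups (adjusted p = 0.732). MAP3K2 rose from 7.23, 8.96 and 9.28 TPM to 16.2, 17.4 and 15.4 TPM (log2 change 0.87, adjusted p = 0.000552), and the difference was -0.94 (SE 0.184, adjusted p = 0.00855). MAP3K2-DT shares 218 exon bases, 5.08% of its own, with MAP3K2.

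SP2-DT and MAGEA3-DT parted from their partners in direction. SP2 had 19.4, 21.4 and 25.7 TPM in siCTR and 27.4, 28.7 and 34.2 TPM in siCEP20, a log2 change of 0.43 (adjusted p = 0.0222) beside the fall of SP2-DT. The difference was -1.58 (SE 0.287, adjusted p = 0.0065), and SP2-DT went from 29.7% to 7.46% of the level of SP2. For MAGEA3-DT the difference was -1.22 (SE 0.223, adjusted p = 0.0065), from 71.5% to 21.6% of the level of MAGEA3. In KLHDC7B-DT the difference was also called (adjusted p = 0.0109), beside a partner of 1.64, 1.81 and 2.23 TPM in siCTR and 1.01, 1.49 and 5.23 TPM in siCEP20, in which siCEP20 replicate 3 stood far above the others.

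Genes that stop divergent transcription early or degrade its RNA were read from 7 lists of 73 genes, all of which were tested. Over the lists, 35 genes rose and 9 fell by the adjusted p alone (47.9% and 12.3%, against 30.2% and 13.2% of all genes), and the median log2 fold change was 0.20. Their part in the levels of the lncRNAs was not tested.

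The nuclear exosome, the complex that degrades divergent RNA, was the one list with more genes lower than higher, with 6 of 13 lower and 2 higher and a median log2 change of -0.14. EXOSC1 went from 81.6 ± 5.09 to 46.0 ± 2.66 TPM, EXOSC5 from 156 ± 12.2 to 98.1 ± 6.33 TPM and EXOSC6 from 17.7 ± 0.0988 to 9.06 ± 0.849 TPM (SD, n = 3 each). All 3 encode structural subunits of the exosome core and were called lower, with log2 changes of -0.81, -0.67 and -0.89 (adjusted p = 0.000132, 0.000362 and 0.000207). The 2 genes that rose were EXOSC10 at 0.35 (adjusted p = 0.00745) and C1D at 0.20 (adjusted p = 0.0423). DIS3 was at 0.07 (adjusted p = 0.715).

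The other lists held more genes higher than lower, or as many. Of the 8 genes of the NEXT, PAXT and TRAMP adaptors, which feed RNA to the exosome, 6 were higher and 1, PABPN1, was lower. TENT4A, a poly(A) polymerase that tags nuclear RNA for decay, was called higher (log2 change 0.67, adjusted p = 0.000729), with ZCCHC8 at 0.48 (adjusted p = 0.00299) and TENT4B at 0.55 (adjusted p = 0.0117). Of 18 Integrator genes, 8 were higher and 0 lower, among them INTS11, the endonuclease of the complex, at 0.64 (adjusted p = 0.000862), INTS1 at 0.55 (adjusted p = 0.00024) and INTS3 at 0.47 (adjusted p = 0.00225).

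Of 19 cleavage and polyadenylation genes, 11 were higher and 1, CLP1, lower. RBBP6 rose by 0.79 (adjusted p = 0.000228), CPSF7 by 0.64 (adjusted p = 0.00121) and FIP1L1 by 0.56 (adjusted p = 0.000624). Of the 3 U1 snRNP genes, SNRPA rose by 0.48 (adjusted p = 0.00183) and SNRNP70 by 0.29 (adjusted p = 0.00267), with SNRPC at 0.15 (adjusted p = 0.0866). Among the 5 genes of the cap-binding complex and its ARS2 partners, ZC3H18 rose by 0.48 (adjusted p = 0.00135), NCBP2 fell by 0.28 (adjusted p = 0.0113) and NCBP1 was at 0.20 (adjusted p = 0.0736). Of 7 Restrictor and other termination genes, 5 were higher and 0 lower, including SCAF4 at 0.77 (adjusted p = 0.000261), TOX4 at 0.75 (adjusted p = 0.00338) and PPP1R10 at 0.49 (adjusted p = 0.000837). Under the median of ratios the split over all 73 genes was 25 higher and 18 lower, so the direction of genes with small changes depends on the scaling.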

How the data were processed

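The data are 1 table of TPM per Ensembl gene for 3 siCEP20 and 3 siCTR libraries of A549 cells. Per the labels' processing notes and the study's methods, the authors trimmed reads with fastp 0.20.1, aligned them to hg38 with HISAT2 2.1.0 and deposited the TPM that StringTie 2.0 computed. The annotation release and the strand setting are not given in the sources used here. TPM keeps no counts, so precision rests on the replicates.

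Genes were named with GENCODE 44 (hg38), which matched 99.6% of the table. In R 4.3.3 with limma 3.58.1 (lmFit, eBayes with a trend), log2(TPM + 1) was compared between the groups for all genes averaging 1 TPM or more, with no replicate block. P-values were adjusted by Benjamini-Hochberg over all these genes, and calls needed an adjusted p under 0.05 and a fold over 1.5 or under 0.67, the study's limits. For pairs, the difference of the log2 values of lncRNA and partner in each library was fitted over all 1574 pairs of tested genes that start on opposite strands within 1000 bases or are a member and its partner. The steps were tested on simulated data. Promoter windows and motifs were read from hg38 with Python 3.11.15 and pyfaidx 0.9.0.4.

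The members, the gene lists and the tests were chosen with earlier results of these data known. Named were CEP20, the 10 members called higher and the 10 called lower (7 existed) with the largest change and separate groups, the 5 most abundant members, the 5 called pairs with the largest positive and the 5 with the largest negative difference, their partners, the 3 genes of smallest adjusted p in each list, and 3 members on each side of the 1 TPM limit. The remaining called members and the members above their partner were named after their values were seen. Alternatives were a pseudocount of 0.1, no filter, a mean of at least 5 TPM, median-of-ratios scaling, quantile normalization, a length and GC correction (loess, span 0.5), eBayes without a trend, a replicate block, no fold limit, members without exon overlap, and leaving out each library.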

Additional observations from a re-analysis of the deposited data

How the results depend on the processing

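The DT lncRNAs called higher and lower, their median log2 change and the called pairs moved most with filters and scaling. With a mean of at least 5 TPM, 37 members gave 4 higher (10.8%) and 2 lower (5.41%), against 11.1% and 5% of the fewer genes tested. The median was 0.0277, against 0.128 for all genes, and 7 pairs were called (20.6%, against 25.6% of all pairs). Without a filter, 427 members gave 12 higher (2.81%) and 6 lower (1.41%), against 5.29% and 2.08% of genes. The median was 0.0606, against 0.039 for all genes, and 65 pairs were called (15.4%, against 16.2% of all pairs). Under the median of ratios 8 were higher and 10 lower, with a median of 0.000751, against 1e-04 for all genes. Under quantile normalization 7 were higher and 11 lower. The members' median was then -0.0427, its one reversal, against 0.0076 for all genes. All 7 lower calls remained under both, and 8 and 7 of the 15 higher calls. The length and GC correction gave a median of 0.0117, against 0.017 for all genes. With no fold limit the counts were 24 and 12, and the 69 members without exon overlap had 9 and 3 calls and 15 called pairs. For the latter these are 13% and 4.35%, against 11.2% and 4.61% of genes, and 22.1% against 21.9% of all pairs. Pairs called the same way numbered 5 with a pseudocount of 0.1, 1 under the median of ratios, 1 under quantile normalization, 14 with no fold limit and 1 without exon overlap. Pairs called in opposite ways numbered 1 with a pseudocount of 0.1, 1 under quantile normalization and 4 with no fold limit. The causes of these shifts were not tested. The decay and termination genes, compared as an alternative added after seeing the data, had 18 lower under the median of ratios, 16 lower under quantile normalization, and 22 higher and 14 lower with the length and GC correction.

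Leaving out each library gave 12 to 15 members higher, 5 to 6 lower, a median of 0.0643 (without siCEP20 replicate 2) to 0.123, 19 (without siCEP20 replicate 1) to 26 called pairs, 2 to 4 pairs called the same way and 0 to 1 in opposite ways, the latter without siCTR replicate 2 or 3. The median of all genes ranged from 0.105 to 0.156 and was above the members' median in each of these fits, a difference that was not tested. Of members 8.63% to 10.8% were higher and 3.6% to 4.32% lower, against 9.28% to 12.8% and 4.13% to 4.77% of genes. Called pairs were 13.8% to 18.8%, against 18.4% to 21.1% of all pairs. Decay genes ranged from 25 to 33 higher and 7 to 8 lower. Called in every alternative that tested them were GOLPH3-DT, CNN3-DT, SUCLG2-DT, AJUBA-DT, DDX19A-DT, KLHDC7B-DT, B4GAT1-DT and SOCS3-DT. Of these, GOLPH3-DT, DDX19A-DT, KLHDC7B-DT and B4GAT1-DT passed the filter through the group in which they were high. GOLPH3-DT, KLHDC7B-DT and B4GAT1-DT also rest on values listed at 0. The alternatives cannot check whether such a 0 is a failed estimate. TCF12-DT and SP2-DT lost their calls only without a filter (adjusted p = 0.0581 and 0.0832). No member was called in opposite directions in any alternative. The only named members whose sign turned were never called. C2orf74-DT ranged from -0.012 to 0.0831 with single libraries left out, ZC3H12A-DT from -0.016 to 0.17. C2orf74-DT was at -0.12 under the median of ratios, -0.11 under quantile normalization, -0.067 with the length and GC correction, -0.0078 without siCEP20 replicate 2 and -0.012 without siCTR replicate 3. SLC12A2-DT was at -0.054, -0.016 and -0.11 under the same 3 corrections, and ZC3H12A-DT at -0.056 and -0.046 under the first 2 and -0.016 without siCTR replicate 2. The differences of 10 named pairs, also an added alternative, kept their call in 121 of 132 values and were weaker in 11, in the pairs of TARS1-DT and NUP50-DT.

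The replicate numbers were checked for pairing. Correlations of same-numbered siCTR and siCEP20 libraries' deviations were 0.157, -0.061 and -0.062. Among same-numbered libraries, only those of replicate 1 correlated best with each other. With 3 libraries per group, whose deviations are not independent, this check can neither show nor exclude a pairing. The labels give the libraries only a number. With the number as a block, 13 members were higher (9.35%) and 7 lower (5.04%), against 11.2% and 4.7% of genes, PCMTD1-DT and LY6E-DT losing their calls. In that fit 24 pairs were called (17.4%, against 20.3% of all pairs). TPM gives no depth, and members near 1 TPM have the least certain values.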

Other observations

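A further 288 DT lncRNAs had values above 0 but a mean under 1 TPM and were not tested in the report. The mean TPM was higher in siCEP20 in 166 of them and lower in 122, and no share over all genes under 1 TPM is given here. By the fitted log2 changes, another measure, 87 members were higher and 52 lower, as were 9387 and 5391 of all genes tested. Another 161 DT lncRNAs were listed at 0 in every library. Each siCTR library held 135, 143 or 143 DT lncRNAs at 1 TPM or more, and each siCEP20 library 146, 149 or 157, so the groups did not overlap, and genes of all kinds at 1 TPM or more were also more numerous in every siCEP20 library.

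All lncRNAs together made up 1.55%, 1.42% and 1.38% of TPM after siCTR and 1.29%, 1.33% and 1.29% after siCEP20. The members' part of this was 0.0677%, 0.0664% and 0.0706% in siCTR and 0.0681%, 0.0717% and 0.0718% in siCEP20. The first share was lower in every siCEP20 library, while the groups overlapped in the second.

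Among the other lncRNAs, the 44 tested host genes of small nucleolar RNAs and microRNAs had 25% called lower, against 5.04% of the DT lncRNAs and 4.61% of all genes. Of 352 antisense lncRNAs, 6.53% were called higher and 4.26% lower, and of 147 lncRNAs named LINC, 13.6% and 4.08%. No test of these differences between classes was made.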
